A study of Mus musculus with 3 samples.

Results

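The receptors of the signalling lymphocytic activation molecule (SLAM) family and their adaptor SAP were described in mouse regulatory T cells, the CD4 T cells that express the transcription factor Foxp3 and restrain immune responses. The members were taken by gene name from the annotation of the deposited tables. They were the receptor genes Slamf1, Cd48, Ly9, Cd84, Slamf6 and Slamf7 and the adaptor gene Sh2d1a, which is 7 of 55536 annotated genes. The 7 annotated transcripts of Slamf6 and the 5 of Ly9 were followed one by one. PolyA-selected RNA had been sequenced in 3 libraries that form 1 group, inflammation-experienced regulatory T cells of a male adult mouse of 16 weeks of the strain Foxp3GFP-DTRCD4CreERT2R26tdTomato. The strain name carries a GFP and diphtheria toxin receptor (DTR) cassette at Foxp3, a tamoxifen-activated Cre recombinase and a tdTomato reporter, and all 3 libraries share these alleles. The labels give 1 biological replicate from 1 donor with technical replicates 1, 2 and 3, called library 1, 2 and 3 here. No untreated or other group was analysed here, so levels were described and the tests asked only whether the libraries differed by more than counting. Each SD is the spread over these 3 libraries and says nothing of the spread between animals, and the p-values measure the same technical spread.

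SLAM receptors are immunoglobulin-like proteins of blood cells, and most of them bind a copy of themselves on a neighbouring cell. CD48 is an exception, since it has a lipid anchor in place of a cytoplasmic tail and binds CD2 and CD244. The tails of the other receptors among the members carry a tyrosine switch motif. It reads threonine, any residue, tyrosine, any 2 residues and then valine or isoleucine. SAP, encoded on the X chromosome, docks on the motif of most of these receptors and brings in the kinase Fyn. Without SAP the same motif can bind inhibitory phosphatases. In humans, loss of SAP causes X-linked lymphoproliferative disease, and in mice SAP is needed for natural killer T cells and for stable contact of helper T cells with B cells.

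The switch motifs are shown as coding DNA because the receptors, and the transcripts of Slamf6, differed in how many of them they carried. They were searched in frame on the coding strand as the codons ACN, NNN, TAC or TAT, NNN, NNN and then GTN, ATA, ATC or ATT, within the last 300 coding bases. All sequences come from the GENCODE M21 transcripts on the mm10 build, run 5′ to 3′ on the strand of the gene and carry 9 flanking bases on each side. Capitals mark the 6 codons of the motif.
Slamf6 first motif, chr1:171939437-171939454, plus strand: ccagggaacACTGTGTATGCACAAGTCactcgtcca
Slamf6 second motif, chr1:171941664-171941681, plus strand: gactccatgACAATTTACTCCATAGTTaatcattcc
Slamf1 first motif, chr1:171792339-171792356, plus strand: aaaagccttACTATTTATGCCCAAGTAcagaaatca
Slamf1 second motif, chr1:171799588-171799605, plus strand: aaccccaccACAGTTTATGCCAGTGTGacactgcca
Ly9 first motif, chr1:171593912-171593929, minus strand: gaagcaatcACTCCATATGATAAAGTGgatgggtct
Ly9 second motif, chr1:171593438-171593455, minus strand: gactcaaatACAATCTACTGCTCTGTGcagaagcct
Cd84 first motif, chr1:171884605-171884622, plus strand: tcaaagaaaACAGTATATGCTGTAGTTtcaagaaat
Cd84 second motif, chr1:171885601-171885618, plus strand: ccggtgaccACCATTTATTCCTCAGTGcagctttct
Slamf7 motif, chr1:171636327-171636344, minus strand: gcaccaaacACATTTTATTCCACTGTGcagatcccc
Slamf6, Slamf1, Ly9 and Cd84 each held 2 motifs and Slamf7 held 1. Among 21177 protein-coding genes with at least 300 coding bases, read at their longest coding sequence, 357 (1.69%) held at least 1 such match and 10 (0.0472%) held at least 2. The main Cd48 transcript, Cd48-202, had a match at codons 105 to 110 of 240, outside its last 300 coding bases, and its product has no cytoplasmic tail for it to lie in. A match of letters describes the sequence and does not show that the site is used.

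**Figure D1:**
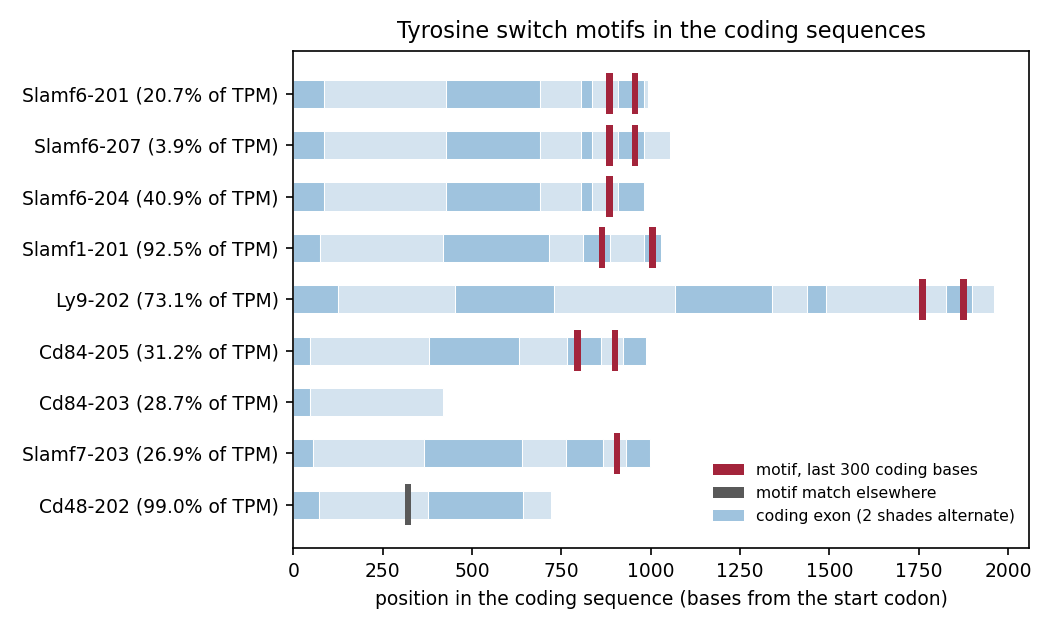
Position of tyrosine switch motifs along the coding sequences of the leading transcripts, in bases from the start codon on the x axis, with the mean percent of the gene's TPM in brackets on the y axis. Coding exons alternate between a pair of blue shades, motifs in the last 300 coding bases are red, and Slamf6-204 (40.9%) carries 1 motif where Slamf6-201 and Slamf6-207 carry 2.

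All 7 members were detected, which means at least 1 TPM in each library, where TPM is a transcript level scaled for length and depth. The receptor levels spanned a range from Slamf6 at 487 ± 74.6 TPM (SD, n = 3) to Slamf7 at 14.7 ± 1.30 TPM. The median of the member means was 145 TPM, beside a median of 25.9 TPM over the 10436 detected protein-coding genes. In these bulk libraries, fewer cells of a type and less RNA per cell cannot be told apart.

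Slamf6, the gene of the self-binding receptor Ly108, lies at chromosome 1, 171917515 to 171953170 on the plus strand. Its level was 453, 435 and 572 TPM in libraries 1, 2 and 3, from 7786, 6973 and 9069 expected counts. It was the highest member, at rank 244 of 22028 protein-coding genes. Cd48, the gene of the lipid-anchored receptor (chromosome 1, 171682009 to 171705258, plus strand), reached 440, 387 and 482 TPM, or 437 ± 47.6 TPM on average, at rank 280. These 2 genes were not told apart by level, with a log2 ratio of Slamf6 to Cd48 (TPM + 1) of 0.15 ± 0.10. A neighbouring pair in the order was taken as told apart where the 3 libraries gave log2 ratios of the same sign with a mean over 2 SD.

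Sh2d1a, the gene of SAP, lies at X, 42502453 to 42529330 on the plus strand. Its level was 264, 212 and 321 TPM in libraries 1, 2 and 3, or 266 ± 54.6 TPM on average, at rank 540. It stood below Cd48 (log2 ratio of Cd48 to Sh2d1a 0.73 ± 0.14) and above Cd84 (log2 ratio of Sh2d1a to Cd84 0.85 ± 0.18). The adaptor gene was therefore above 4 of the 6 receptor genes in TPM in each library.

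Cd84, a self-binding receptor gene (chromosome 1, 171839697 to 171890718, plus strand), reached 140, 134 and 161 TPM. Ly9, the gene of CD229, a self-binding receptor with 4 immunoglobulin-like domains (chromosome 1, 171588624 to 171607410, minus strand), reached 137, 121 and 126 TPM. Their means of 145 ± 14.1 and 128 ± 8.09 TPM were not told apart, with a log2 ratio of Cd84 to Ly9 of 0.18 ± 0.16. Slamf1, the gene of CD150 (chromosome 1, 171767127 to 171801184, plus strand), followed at 85.4, 75.5 and 75.1 TPM, below Ly9 by 0.70 ± 0.04 (log2). Slamf7, the gene of CRACC (chromosome 1, 171632403 to 171653035, minus strand), came last at 13.2, 15.5 and 15.4 TPM and rank 6704, from 352, 363 and 364 counts. It lay below Slamf1 by 2.35 ± 0.23 (log2), the widest step in the order, and 4 of the 6 neighbouring pairs were told apart.

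**Figure D2:**
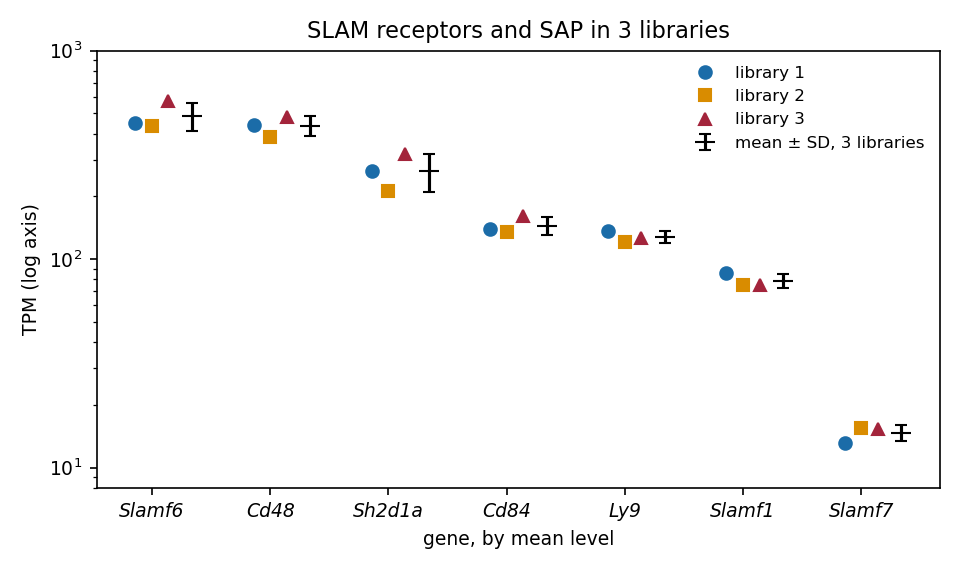
TPM of each member in the 3 libraries on a log axis, with genes ordered by mean level on the x axis; black bars are the mean ± SD of the 3 libraries. Slamf6 and Cd48 overlap at the top, Sh2d1a lies between them and Cd84, and Slamf7 lies apart at 13.2 to 15.5 TPM.

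The 6 receptors summed to 1268, 1168 and 1432 TPM, a mean of 1289 ± 133 TPM. Slamf6 made up 37.6 ± 2.15% of this sum and Cd48 33.8 ± 0.81%. Cd84 (11.3 ± 0.25%), Ly9 (9.98 ± 1.03%), Slamf1 (6.15 ± 0.79%) and Slamf7 (1.15 ± 0.16%) made up the rest. The Sh2d1a level was 20.8%, 18.1% and 22.4% of the receptor sum in libraries 1, 2 and 3. Slamf6 and Cd48 led the sum in each library, and the sum was highest in library 3.

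A second gene table, with whole counts for an older annotation (GENCODE M4), gave the 7 members between 21.4% (Cd48) and 54.0% (Ly9) of their counts in the first table, against 30.2% for all counts. As CPM per kilobase of the effective length in the first table, where CPM scales each count by the library's total, Slamf6 stood highest at 255 and Cd48 followed at 203. Ly9 (150) then stood above Sh2d1a (134), Cd84 (75.3), Slamf1 (59.7) and Slamf7 (15.2). The order of Ly9 and Cd84 therefore turned with the table, with a log2 ratio of Cd84 to Ly9 of -0.99 ± 0.10 in the second. Slamf6 and Cd48, not told apart in the first table, were told apart in the second, with a log2 ratio of 0.32 ± 0.07. The chi-square test with edgeR scaling called 5 of the 7 members in the second table, where it called 56.7% of all genes, and Slamf1 and Slamf7 were not among them. The sources used here do not give the rule by which that table counted reads.

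The transcripts of Slamf6 differed in their switch motifs. Slamf6-204 held 44.0%, 37.8% and 40.8% of the gene's TPM in libraries 1, 2 and 3, a mean of 40.9 ± 3.12%, and carries the first motif only. Slamf6-201 (20.7 ± 1.07%) and Slamf6-207 (3.89 ± 0.04%) carry both. Slamf6-204 lacks exon 7 of the other 2, which spans chr1:171941625-171941696 on the plus strand and holds the second motif. The 72 bases of that exon are shown in full, with capitals for the 6 codons of the motif.
Slamf6 exon 7: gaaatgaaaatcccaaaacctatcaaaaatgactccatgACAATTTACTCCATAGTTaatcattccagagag
The length divides into whole codons, and Slamf6-204 has 981 coding bases before its stop codon, against 1053 in Slamf6-207. A transcript without this exon, Ly108-H1, has been described in C57BL/6 mice, and whether the protein differs in these cells was not measured.

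The share of Slamf6-204 depended on the scale. It held 40.9% of TPM but 28.8 ± 2.38% of the gene's expected counts, since it is annotated with 984 bases and ends at its stop codon, beside 2485 bases for Slamf6-201 and 5729 for Slamf6-207. Among these 3 full-length coding transcripts, Slamf6-204 took 62.4 ± 2.82% of TPM and 34.5 ± 2.55% of counts. Slamf6-201 took 31.7 ± 2.62% of TPM and 45.6 ± 2.44% of counts, so the leading transcript of the 3 was another one on each scale. By expected counts, transcripts with 2 motifs held 54.7 ± 1.64% of the gene and the 1 with a single motif 28.8%, and by TPM they held 24.6 ± 1.08% and 40.9%.

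Noncoding Slamf6 transcripts also took a large part of the TPM. Slamf6-206, of 444 bases and annotated as a processed transcript, held 24.1 ± 1.38% of TPM and 7.17 ± 0.36% of counts. The retained-intron transcripts Slamf6-205 and Slamf6-202 held 7.95 ± 0.58% and 1.63 ± 0.07% of TPM. The short coding fragment Slamf6-203, of 346 bases, held 0.83 ± 0.14% of TPM from 12, 15 and 17 counts. The 3 noncoding transcripts together held 33.7 ± 1.92% of the gene's TPM and 16.4 ± 0.72% of its expected counts.

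**Figure D3:**
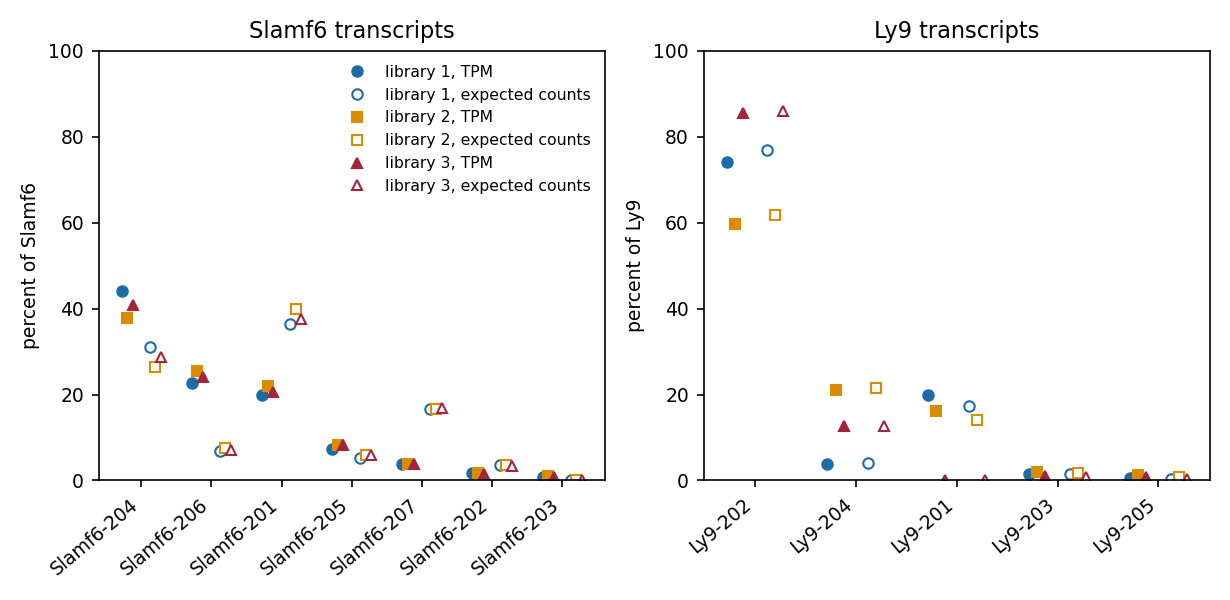
Share of each annotated transcript in its gene, in percent, for Slamf6 on the left and Ly9 on the right; filled symbols are shares of TPM and open symbols shares of expected counts in libraries 1, 2 and 3. Slamf6-204 leads by TPM and Slamf6-201 by counts, and Ly9-201 lies at 0 in library 3.

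Ly9 had 1 main transcript in every library, and its share varied. Ly9-202, with 2 motifs, held 74.1%, 59.6% and 85.6% of the gene's TPM in libraries 1, 2 and 3, a mean of 73.1 ± 13.0%. Ly9-204, annotated as a target of nonsense-mediated decay, which removes messages with an early stop, held 3.90%, 20.9% and 12.8%. Ly9-201 held 19.8%, 16.1% and 0%, from 722, 477 and 0 expected counts. The high values of Ly9-204 and Ly9-202 fell in different libraries, and Ly9-201 was listed at 0 in library 3 only. The posterior SD of the Ly9-201 count in the deposited table was 130, 106 and 84.4, and its posterior-mean share in library 3 was 3.93%. Ly9-201 lacks a coding exon of 330 bases of Ly9-202 at chr1:171604990-171605319. Ly9-203 held 1.53 ± 0.53% and Ly9-205, a retained intron, 0.90 ± 0.40% of TPM.

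The other members differed in how far 1 transcript dominated. Cd48-202 held 99.0 ± 0.11% and Slamf1-201, with 2 motifs, 92.5 ± 0.61% of its gene's TPM. Cd84 was spread by TPM over Cd84-205 (31.2 ± 1.28%), Cd84-203 (28.7 ± 2.57%), Cd84-201 (23.0 ± 5.08%) and Cd84-204 (17.2 ± 3.55%). By expected counts they held 41.2%, 39.5%, 9.14% and 10.1% in the same order. Cd84-203 has 420 coding bases in 2 exons and no motif, and the other 3 coding transcripts of Cd84 carry both. Slamf7 was spread by TPM over 4 transcripts of 22.9% to 26.9%, of which Slamf7-202 (23.9 ± 6.51%) has no motif in the search. By expected counts Slamf7-203 held 53.0 ± 2.89% of the gene, and Slamf7-201, Slamf7-202 and Slamf7-204 held 12.6%, 15.7% and 17.8%. Those last transcripts rested on 25.5 to 73.4 counts per library, with posterior SDs of 10.4 to 20.0. Over the 5 receptors other than Cd48, transcripts with 2 motifs held 47.8 ± 2.76% of the summed TPM and those with 1 motif 24.5 ± 1.72%. Transcripts with an annotated coding sequence but no motif held 7.65 ± 1.82%, and noncoding ones 20.0 ± 1.63%. The class without a motif includes Ly9-204, annotated as a target of nonsense-mediated decay. These shares depend on the scale, since the Slamf6 transcripts with 2 motifs held 24.6% of their gene by TPM and 54.7% by expected counts.

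Sh2d1a was led by Sh2d1a-201 at 71.5%, 76.5% and 65.6% of its TPM. Sh2d1a-203 followed at 19.6 ± 3.60% and has 9 coding bases fewer, the last of coding exon 1, at chrX:42502851-42502859 on the plus strand. The stretch is shown because the share of the 2 transcripts rests on it within the coding sequence, and capitals mark the bases absent from Sh2d1a-203. The lowercase bases after the capitals follow in the transcript, past the end of coding exon 1.
Sh2d1a, end of coding exon 1: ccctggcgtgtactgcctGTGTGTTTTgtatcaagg
The posterior SD of the Sh2d1a-203 count was 133, 114 and 158 beside counts of 551, 288 and 605, a large part of the count in each library.

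The members were then compared between libraries. A Pearson chi-square test against Poisson counting, with edgeR TMM library sizes and Benjamini-Hochberg adjustment over all genes, called 6 of the 7 members at an adjusted p under 0.05. The same test called 63.9% of the 14877 genes tested, so a call by itself sets no member apart. Slamf6, Cd48, Sh2d1a and Cd84 were called and highest in library 3, which was so for 24.3% of all genes tested. Slamf6 had an adjusted p of 7.7e-86 in this edgeR-scaled test and stood in library 3 above the mean of libraries 1 and 2 by 0.38 (log2). The values for Sh2d1a were 1.3e-36 and 0.39, for Cd48 3.1e-31 and 0.25 and for Cd84 4.4e-20 and 0.25, also by the edgeR-scaled test. Ly9 (adjusted p 0.00027, difference 0.04) and Slamf1 (0.00071, difference -0.07) were called and highest in library 1 by the same edgeR-scaled test. Slamf1 was also lowest in library 3, where 29.8% of all genes were called and lowest, and its difference turned to 0.01 with total counts alone and to 0.07 in the second table. Slamf7 did not pass the edgeR-scaled test (adjusted p 0.12, difference 0.11).

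The coefficient of variation beyond counting was 17.9% for Sh2d1a, 15.9% for Slamf6, 11.0% for Cd48 and 10.2% for Cd84. It was 6.18% for Slamf7, 5.03% for Slamf1 and 4.66% for Ly9. Without library 3, the edgeR-scaled test called 30.2% of all genes and no longer called Slamf6 (adjusted p 0.98) or Cd84 (adjusted p 0.24), while Cd48 (5.1e-07) and Sh2d1a (6.2e-09) were still called. The level of Slamf6 thus differed in library 3, and libraries 1 and 2 were not told apart by this test. Slamf1 was no longer called without library 1 (adjusted p 0.88) and Ly9 no longer without library 2 (adjusted p 0.50), by the same edgeR-scaled test.

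Library 3 stood apart from the others over all genes in a way that followed base composition. For 9990 genes, the GC percent of the leading transcript at its richest stretch of 200 bases had a Spearman rho with the log2 deviation of 0.41, 0.48 and -0.54 in libraries 1, 2 and 3, as a description across genes. The 7 members lay at windows of 50.5% (Cd48) to 58% (Ly9) GC, below the median of 63.5% over tested genes. The 1753 genes in that range had a median difference of library 3 of 0.16 (log2), with the 5th and 95th percentiles at -0.75 and 0.54, and all 7 members lay within these bounds. With the GC trend taken out, the differences became 0.22 for Slamf6, 0.25 for Sh2d1a, 0.06 for Cd48 and 0.08 for Cd84. They were -0.08 for Ly9, -0.20 for Slamf1 and -0.04 for Slamf7, and the same 6 members were called where 58.6% of all genes were. Slamf6, Sh2d1a and Cd84 were then called and highest in library 3 (23.6% of all genes), Ly9 and Slamf1 were called and lowest there (24.4% of all genes), and Cd48 was highest in library 1. The sign for Ly9 turned under this scaling, and so did that for Slamf7, which was not called. The part of base composition in the difference of Slamf6 and Sh2d1a beyond this trend was not tested.

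**Figure D4:**
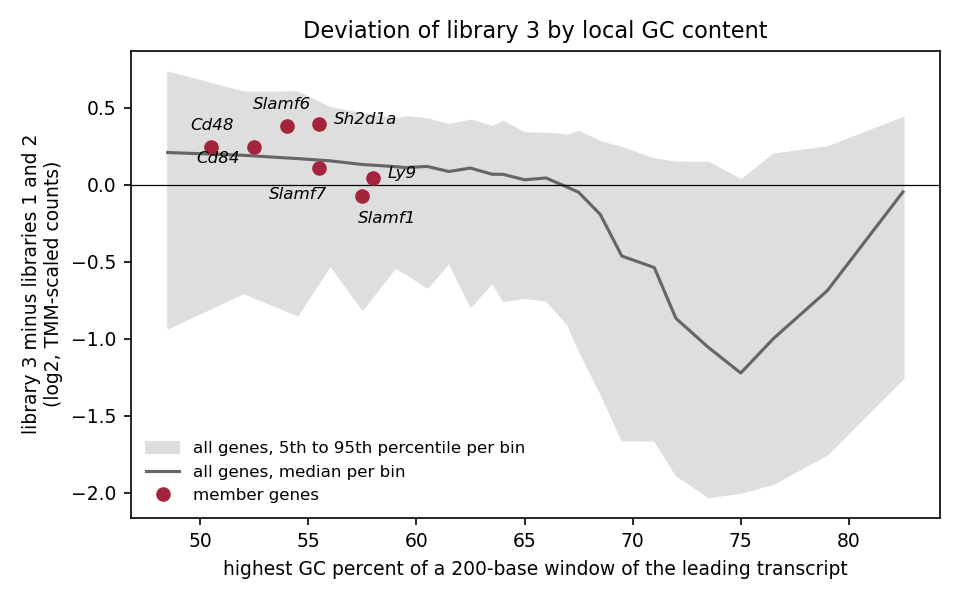
Difference of library 3 from the mean of libraries 1 and 2 (log2, TMM-scaled counts) on the y axis against the highest GC percent of a 200-base window of the leading transcript on the x axis; the grey line and band are the median and the 5th to 95th percentile of 9990 genes in bins, and red points are the 7 members. Slamf6 and Sh2d1a lie above the line at 0.38 and 0.39, inside the band.

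Of the 12 transcripts of Slamf6 and Ly9, the edgeR-scaled chi-square test called 10, beside 66.4% of the 42570 transcripts tested. Slamf6-203 (adjusted p 0.51) and Ly9-205 (adjusted p 0.070) were not called by the edgeR-scaled test. Slamf6-204 and Slamf6-201 stood in library 3 above the other libraries by 0.41 and 0.38 (log2), close to the gene. Ly9-202 stood above by 0.38, whereas Ly9 as a gene differed by 0.04. The test takes the estimated counts as observed and leaves out the uncertainty of assigning reads, which was large for Ly9. Without library 3, 5 of the 12 were called, beside 39.4% of all transcripts.

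The other genes of the pathway came from 6 written lists with 29 genes, of which 23 were detected. Their median was 44.6 TPM, and the edgeR-scaled test called 24 of the 26 with enough counts, beside 63.9% of all genes. Of the 24, 8 were highest and 10 lowest in library 3, where 24.3% and 29.8% of all genes tested were called and highest or lowest. The remaining receptors of the family were low, and none reached 1 TPM in each library. As a floor, 3 counts on a transcript of 1 kilobase stood for 0.230 to 0.251 TPM, and Slamf9 lay near it. Cd244a, the gene of the CD48 partner 2B4, was at 0.38, 0.96 and 0.45 TPM, Slamf8 at 1.12, 0.59 and 0.49 TPM, and Slamf9 at 0.30, 0.26 and 0.07 TPM. The other partner of CD48, Cd2, was at 1127, 969 and 1039 TPM. The SAP relatives of the EAT-2 type were at or near 0, with Sh2d1b1 at 0.37, 0 and 0.20 TPM and Sh2d1b2 at 0, 0.03 and 0 TPM. Among the adaptors of this family, Sh2d1a was thus the one detected.

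All 9 kinases and exchange factors listed with SAP were detected and called, where 63.9% of all genes were. Of these, 2 were highest in library 3 (24.3% of all genes) and 5 lowest (29.8%). Fyn, the kinase that SAP recruits, was at 54.5, 55.8 and 45.8 TPM, and Lck, the other Src kinase of T cells, at 1401 ± 74.1 TPM. Csk, which restrains both, was at 154 ± 9.14 TPM, the exchange factor Vav1 at 194 ± 11.6 TPM, and the kinase C theta gene Prkcq at 134 ± 40.9 TPM. Arhgef6 and Arhgef7, the PIX exchange factors, were at 129 ± 3.68 and 15.9 ± 2.96 TPM, the kinase gene Pak2 at 60.6 ± 22.4 TPM and the phospholipase gene Plcg1 at 38.2 ± 5.55 TPM. Sh2d1a therefore stood above Fyn and below Lck in each library.

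All 7 phosphatases and adaptors that bind the switch motif or act after it were detected and called, where 63.9% of all genes were called. Ptpn6, the gene of the phosphatase SHP-1, was at 297 ± 21.9 TPM, close to the Sh2d1a mean of 266 TPM. Inpp5d, the gene of the lipid phosphatase SHIP-1, was at 200 ± 11.6 TPM, and Ptpn11, the gene of SHP-2, at 16.2 ± 4.19 TPM. The adaptor genes Dok2 and Dok1 were at 159 ± 25.7 and 44.6 ± 9.78 TPM, the Ras regulator Rasa1 at 39.4 ± 5.98 TPM and Grb2 at 9.90 ± 2.51 TPM. This list held 2 genes called and highest in library 3 (24.3% of all genes) and 3 called and lowest (29.8%).

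Of 7 genes known as targets of SLAM and SAP signals in innate-like or helper T cells, 6 were detected and all 7 called, where 63.9% of all genes were called. Of these, 4 were highest in library 3 (24.3% of all genes) and 2 lowest (29.8%). Zbtb16, the gene of PLZF, the factor of natural killer T cells, was at 0.10, 0.45 and 0.62 TPM. The cytokine genes Il4 and Il21 were at 3.35, 6.23 and 12.9 TPM and at 9.52, 6.09 and 18.2 TPM. Both cytokine genes were called and highest in library 3, as 24.3% of all genes tested were, and Il4 rested on 23, 40 and 81 counts. Gata3, a factor of type 2 helper cells, was at 122, 108 and 43.3 TPM, and Nfatc1 at 155 ± 28.1 TPM, both lowest in library 3. Bcl6, the factor of follicular helper cells, was at 24.0 ± 4.04 TPM and Egr2 at 50.1 ± 7.92 TPM. Of the 10 pathway genes lowest in library 3, 5 turned with the GC trend removed, with differences of 0.06 for Prkcq, 0.50 for Vav1, 0.37 for Plcg1, 0.07 for Grb2 and 0.04 for Nfatc1. Fyn, also among the 10, went from -0.45 to -0.01. Fyn, Prkcq and Grb2 were no longer called after this step, and neither was Rasa1, 1 of the 8 highest, at 0.12. Of the 8 highest, Lck turned, to -0.05, and the 4 targets Zbtb16, Il4, Bcl6 and Il21 stayed above 0, at 1.63, 1.32, 1.27 and 1.11.

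The genes around the receptors were mostly at low levels. The 6 receptor genes lie within 365 kb of chromosome 1 (171588624 to 171953170), where 19 genes are annotated. Of the 13 others, 3 were detected and 4 were at 0 in all libraries, and none passed a mean of 7.95 TPM. That highest value belonged to the pseudogene Tma7-ps at 12.1, 11.8 and 0 TPM, and the detected ones were A630035G10Rik (1.30 ± 0.06 TPM), Gm37010 (3.15 ± 0.23 TPM) and Gm37065 (6.19 ± 2.30 TPM). Gm37065 is antisense to Slamf6, at 5.55, 4.27 and 8.74 TPM, and shares no exon base with it. Gm37787 shares 423 exon bases with Slamf7 on the other strand and was at 1.48, 0 and 1.28 TPM. Tenm1 shares 1465 exon bases with Sh2d1a on the other strand and was at 0.09 TPM or less. The sources used here do not say whether counting used strand, so reads in those shared bases cannot be told apart.

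**Figure D5:**
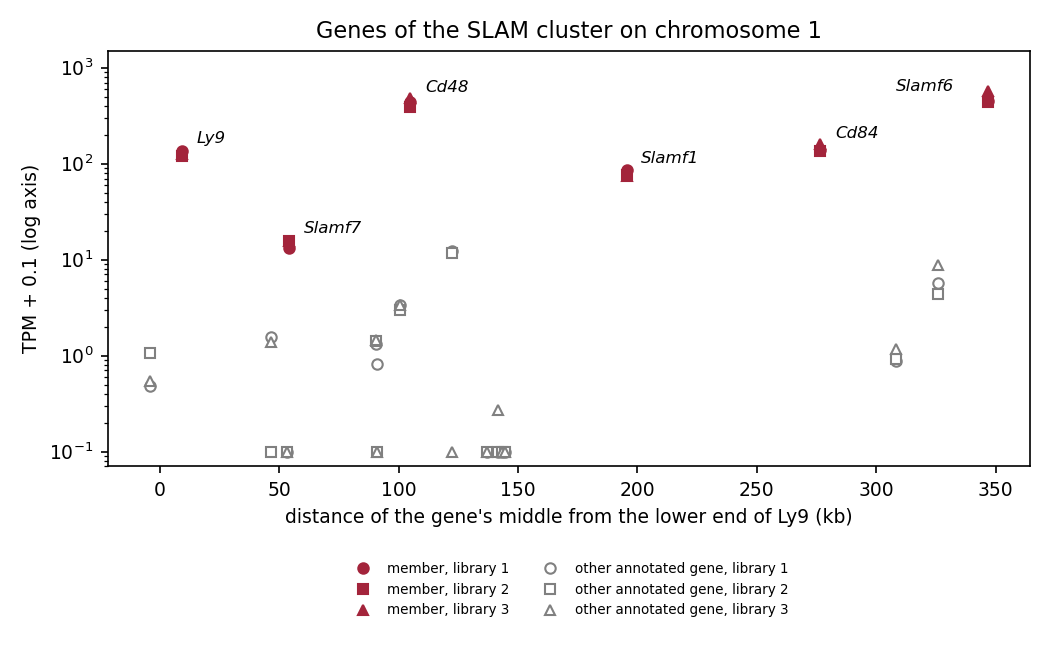
TPM + 0.1 on a log axis of the 19 annotated genes of the SLAM cluster, placed by the distance of the gene's middle from the lower end of Ly9 in kb on the x axis. Filled red symbols are the 6 receptor genes and open grey symbols the 13 others in libraries 1, 2 and 3; the receptors lie at 13.2 TPM and above, the others mostly near or under 1 TPM.

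The libraries held 20942875, 18402479 and 17494966 expected counts on annotated genes. Regulatory T cell genes marked the cells as labelled, with Foxp3 at 77.6, 86.2 and 59.2 TPM and Izumo1r at 887 ± 121 TPM, and all 6 listed genes were detected. None of the 6 was called and highest in library 3. Foxp3, Ctla4 and Tnfrsf18 were called and lowest there, as 29.8% of all genes tested were, with differences of -0.39, -0.27 and -0.11. The 7 T cell identity genes summed to 7464, 7145 and 8197 TPM, led by Trac, and 6 of them were called and highest in library 3, as Slamf6, Cd48, Sh2d1a, Cd84 and 24.3% of all genes were. Other blood cells also express SLAM receptors. The 8 B cell markers summed to 1796, 1392 and 1557 TPM, of which Ighm held 1486 ± 206 TPM, while Cd79b was at 45.1 ± 0.81 TPM, and 4 of the 8 were called and highest in library 3. The 6 natural killer cell markers summed to 119, 121 and 159 TPM, led by Nkg7 with Ncr1 at 0.04 TPM, and 3 were called and highest in library 3. The 8 macrophage markers summed to 376, 336 and 396 TPM, led by Ctss at 328 ± 35.8 TPM, with Csf1r at 14.2 ± 1.93 TPM, and 2 were called and highest in library 3. The 6 plasma cell markers summed to 119, 194 and 60.0 TPM, with the highest mean in Xbp1 and Sdc1 at 0.20 TPM. Igha, at 3.77, 92.8 and 1.62 TPM, led this list in library 2. None of the plasma cell markers was called and highest in library 3. Xbp1, Prdm1 and Igha were called and lowest there, as 29.8% of all genes tested were, with differences of -1.99, -0.88 and -2.99. With the GC trend removed, these differences became -1.17, -0.35 and -3.08. The dendritic cell list (led by Zbtb46), the CD8 list (led by Cd8b1) and the platelet list (led by Itga2b, with Gp1bb at 0 throughout) summed to at most 3.36, 22.3 and 1.90 TPM. The part of these other cells in the member levels was not tested.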

How the data were processed

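PolyA RNA-seq of 3 technical libraries of 1 biological sample was analysed. Fragments were made by Covaris shearing, per the labels' protocols. For each library the authors deposited gene and transcript tables with expected counts, TPM and FPKM, both scaled for length and depth, per the file headers, on mm10 with GENCODE M21, per the text deposited with them. The transcript tables also hold the authors' percent of the gene's TPM and the posterior SD of the count (used as a signal value with no test), per the file headers. A second deposited gene table holds whole counts for GENCODE M4, with 6339932, 5775622 and 5056487 counts in libraries 1, 2 and 3. The sources used here do not name the aligner or counter. Of 81881 gene rows, 26345 that are not annotated genes (such as tRNA and spike-in entries) stayed out of tests and totals.

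Expected counts were rounded. For genes and transcripts whose counts averaged 10 or more, a Pearson chi-square statistic compared the libraries with Poisson sampling (2 degrees of freedom), using library sizes from edgeR 4.0.16 (TMM) and Benjamini-Hochberg adjustment at 0.05. The step was tested on simulated data. Level ratios use log2(TPM + 1), which understates ratios of low genes. The GC trend is a lowess curve (fraction 0.3) over genes whose counts averaged 100 or more. Positions are 1-based. Floors cover counting error only. The members and lists were chosen with earlier results of these data known. The genes named are all members, all Slamf6 and Ly9 transcripts of at least 1% mean share and the leading transcript of the others, all pathway genes, the highest gene of each marker list with any at 0 throughout, the genes of the cluster, and for each member the 2 genes of most similar pattern. Further ones named beside these (Slamf6-203, Ly9-205, the other transcripts of Cd84, Slamf7 and Sh2d1a, Foxp3, Ctla4, Tnfrsf18, Cd79b, Csf1r, Ncr1, Sdc1, Prdm1 and Igha) were chosen after their values were seen. DESeq2 1.42.0 size factors, total counts, other filters, the second table, FPKM, TPM over nuclear protein-coding genes, GC correction and the omission of each library in turn were tried as alternatives. The share from the posterior mean was added after seeing the data.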

Additional observations from a re-analysis of the deposited data

How the results depend on the processing

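With all 3 libraries, 42 results on single members were computed under alternatives, of which 1 lost and 1 gained the call and 4 changed the sign of the difference of library 3. With 1 library left out, 4 of 21 lost the call and none gained it, and no such difference was computed. The count of genes differing between libraries, 9501 of 14877 tested, fell to 6222 of 10964 tested with the second table. It was 7674 of 14927 without library 1, 8029 of 14885 without library 2 and 4489 of 14868 without library 3. Members called were 5, 5 and 4 of 7 in the same order. With total counts only, the chi-square test called all 7 members and 10065 of 14877 genes. Slamf7 then had an adjusted p of 0.020 by that test. In the second table, the chi-square test with edgeR scaling called 5 members. Slamf1 turned with total counts only (adjusted p 0.044, difference 0.01) and in the second table (adjusted p 0.43, difference 0.07), and Ly9 turned with the GC trend removed (adjusted p 6.6e-05, difference -0.08), as did Slamf7 (adjusted p 0.17, difference -0.04), by the same test. The cause was not tested. Called transcripts of Slamf6 and Ly9 ranged over 5 to 10 of 12 with 1 library left out. The lowest was without library 3, where 39.4% of all transcripts were called. The receptor sum was 841 in FPKM and 1574 in TPM over nuclear protein-coding genes, which changes the total it is scaled to, and 1218 to 1350 TPM with 1 library left out. Slamf6-204 held 28.8% of expected counts. Its share of TPM ranged over 39.3% to 42.4%, and that of Ly9-202 over 66.9% to 79.8%, with 1 library left out. Pathway genes detected were 22 to 23 throughout, and neighbouring levels told apart 4 to 6. No paired analysis was possible because the 3 libraries form 1 group. The levels are those of 1 animal or pool. Low counts limit Slamf9 (5, 4 and 1), Sh2d1b1 (12, 0 and 6) and Sh2d1b2 (0, 1 and 0), beside a floor of about 0.25 TPM at 1 kb.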

Other observations

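The genes with the pattern over the 3 libraries nearest to each member were named among 9309 protein-coding genes by the Euclidean distance of centred log2 TPM. Slamf6 lay nearest to Hcfc2 (distance 0.0052) and Prune1 (0.0063), with 359 genes within 0.1. Sh2d1a lay nearest to Arl3 (0.0019) and Tpm3-rs7 (0.020), with 73 genes within 0.1, the fewest of the 7 members. Cd48 lay nearest to Ccdc127 and Prepl, Cd84 to Sec11a and Dynlrb1, Ly9 to Adck1 and Cndp2, Slamf1 to Gpatch1 and Hnrnpf, and Slamf7 to Il18rap and Rwdd2b. The nearest other member ranged from rank 235 (Ly9, seen from Slamf1) to rank 2484 (Cd84, seen from Slamf7) among the 9309 genes. Whether these ranks differ from those of unrelated genes was not tested. With 3 libraries such likeness is common, and 708 to 1080 genes lay within 0.1 of Slamf1, Cd48, Ly9 and Cd84.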
